A study of Mus musculus with 6 samples.

Results

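The NF-κB pathway components and feedback inhibitors are 44 mouse genes, taken by gene symbol from a fixed list of subunits, inhibitors, kinases, adaptors and known targets, out of 23282 genes in the count table. Of the 44 members, 41 had enough counts to be tested, and Nfkbid, Tnip3 and Tnfaip8 had too few. The members fall into 9 role groups, which set the order below.

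NF-κB is a family of dimeric transcription factors that IκB proteins hold inactive in the cytoplasm. When a cytokine such as IL-1β binds its receptor, adaptors and ubiquitin chains bring together the kinase TAK1 and the IKK complex, IKK marks IκBα for destruction, and the freed dimers enter the nucleus. Among the genes they switch on are their own inhibitors, IκBα and A20, a classic negative feedback loop, and in the liver the pathway drives part of the acute phase response.

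Hepatocytes were isolated by collagenase perfusion from livers of C57BL/6N mice (C57BL6/N in the sample labels), plated in 12-well plates, and given fresh medium after 3 h. The control group holds 3 samples with no treatment, and the IL-1β group holds 3 samples treated with recombinant IL-1β protein for 24 h at a dose that the labels and the design text do not state. The design text counts 2 samples in each group but numbers 3, all of which were used, and neither it nor the labels say whether they come from separate animals or cultures. RNA was sequenced by QuantSeq, a method that reads the 3′ end of each mRNA, in single-end reads of 75 nt. The series title calls the cells metabolically stressed, but no stress other than IL-1β is described.

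Total counts were 10538667, 11105408 and 9566434 in the control samples and 9538741, 10554243 and 11037083 in the IL-1β samples. Counts were scaled with TMM factors to a common library size (CPM), and on that scale 3 counts, taken as the limit of detection, correspond to between 0.2685 and 0.3207 CPM. That limit covers counting error only. The question put to each gene was whether its level differed after 24 h of IL-1β, tested with edgeR in the 11657 genes with enough counts, and a gene was called at an adjusted p under 0.05. Differences are given as log2 fold changes of IL-1β over control (log2FC) with their standard errors (SE).

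After IL-1β, the mRNAs of the tested IκB proteins, of A20 and its partner ABIN1 and of the 3 tested target genes were higher, while those of most kinases and adaptors did not pass the test. Of the 10 tested members among the IκB proteins and the A20 group, 7 rose and 3 did not pass. Of the 23 members in the groups of kinases, adaptors, the LUBAC ligase and the CARD-BCL10-MALT1 complex, 2 rose, 1 fell and 20 did not pass, so that 13% were called, about the share over all genes tested (13.4%). The summed level of the 44 members was 2059, 2041 and 2112 CPM in the control samples and 3115, 3054 and 3063 CPM in the IL-1β samples. The 2 groups of sums lie well apart, and without Nfkbia they still do, at 1802 ± 27.5 CPM (SD, n = 3) in control and 2297 ± 7.21 CPM (SD, n = 3) after IL-1β.

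In all, 14 of the 41 tested members, or 34.1%, were called, against 13.4% of the 11657 genes tested. Of these, 13 were higher, where 6.97% of the genes tested were, and 1 was lower, where 6.44% were. With a fold change over 1.5 also required, 11 members remained, 10 higher and 1 lower, against 6.60% of the genes tested in either direction. In 19 of the 41 members control and IL-1β samples did not overlap, against a lower share, 28.2%, of the genes tested. The median log2FC was 0.17 over the tested members and -0.0018 over the genes tested. With total counts alone as the scale, 39.6% of the called genes were on the higher side, where TMM gives 52%, and the median of the members was 0.11. Traf1 is among the 14 although no control sample reached the count filter, so it could be tested only because it differed. These are bulk samples, in which fewer cells of a type and less RNA per cell cannot be told apart. Each p measures the spread between these 3 and 3 samples, which may be technical.

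**Figure D1:**
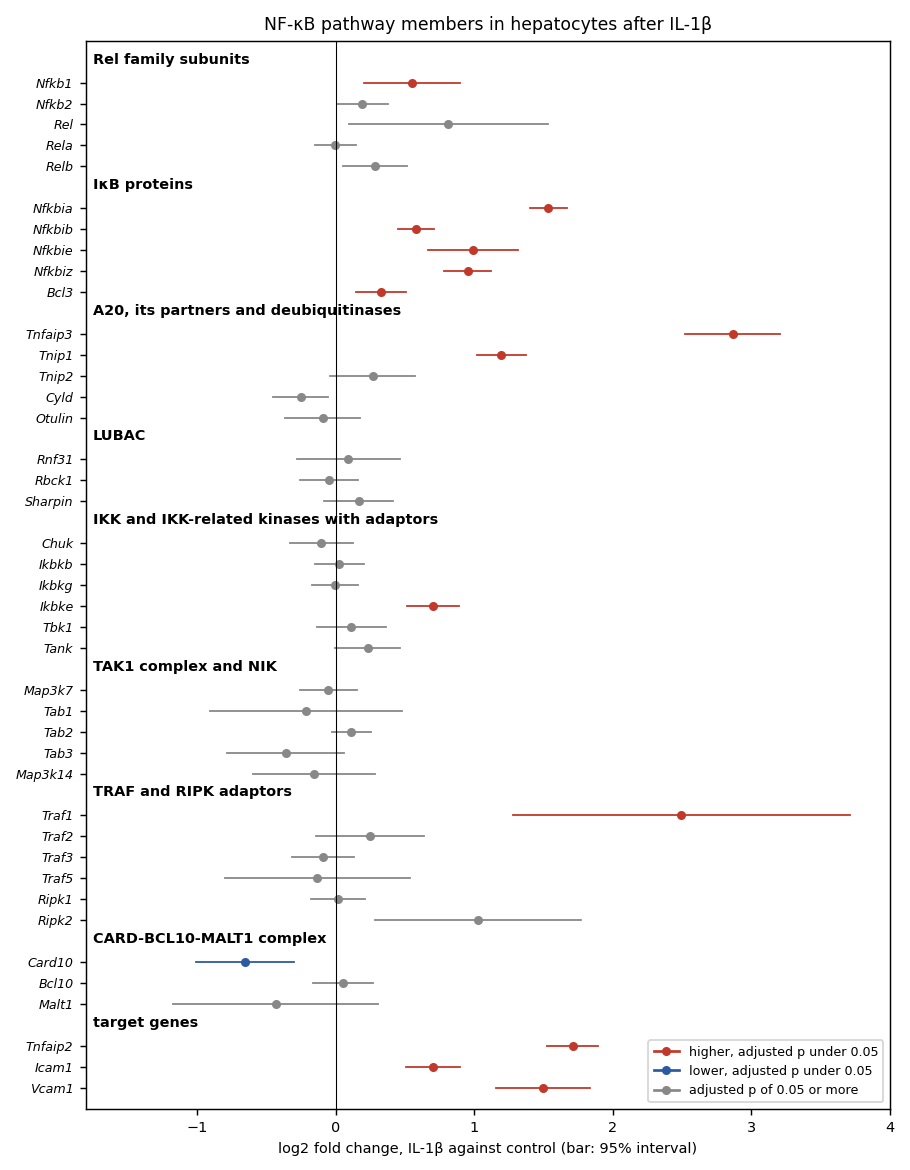
Log2 fold change (log2FC) of each of the 41 tested members, IL-1β against control, grouped by role, with points for the estimate and bars for its 95% interval (n = 3 per group). Red marks the 13 members called higher and blue the 1 called lower, and Rela, the IKK core subunits and the LUBAC subunits lie around 0.

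Each of the 5 tested IκB genes rose at the mRNA level, with a median log2FC of 0.95. The sixth, Nfkbid, which encodes a nuclear IκB protein, had 0 counts in the control samples and 5, 0 and 2 counts in the IL-1β samples, too few to test. Summed over the 6 genes, the level was 654 ± 5.05 CPM (SD, n = 3) in control and 1364 ± 43 CPM (SD, n = 3) after IL-1β. Nfkbia encodes IκBα, the inhibitor that is destroyed and resynthesized in each round of signaling, and lies on the minus strand of chromosome 12 of GRCm38 from 55489409 to 55492647 (gene ID 18035). Its level was 269, 259.5 and 279 CPM in the control samples and 826, 756 and 759 CPM in the IL-1β samples. Each IL-1β sample was far above each control, and the spread within a group was small beside the gap. Nfkbia rose by 1.54 on the log2 scale (SE 0.064, 95% interval 1.40 to 1.67, adjusted p = 3.2e-15), or 2.9-fold.

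Nfkbib encodes IκBβ, a second cytoplasmic inhibitor, and lies on chromosome 7 from 28758251 to 28766644 (gene ID 18036). It was measured at 217, 232 and 219.7 CPM in control and at 333, 328 and 339 CPM after IL-1β. The groups were tight and did not overlap, with a smaller step than for Nfkbia, at a log2FC of 0.58 (SE 0.064, adjusted p = 2.1e-07). Nfkbie, on chromosome 17 from 45555700 to 45563168 (gene ID 18037), encodes IκBε, which also retains dimers in the cytoplasm. Its values of 10.3, 11.6 and 13.7 CPM in control and 19.8, 25.8 and 25.1 CPM after IL-1β give a log2FC of 0.99 (SE 0.16, adjusted p = 4.6e-05). The lowest IL-1β sample, replicate 1, still lay above the highest control.

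The nuclear members of the family act on promoters and can raise as well as limit transcription. Nfkbiz encodes IκBζ, a coactivator of a subset of inflammatory genes, on chromosome 16 from 55811377 to 55838641 (gene ID 80859). Its level was 53.3, 58.7 and 57.5 CPM in control and 106, 111 and 111 CPM after IL-1β. The 3 IL-1β samples were nearly alike and each was well above the controls, at a log2FC of 0.95 (SE 0.082, adjusted p = 2.6e-09). Bcl3, whose protein binds p50 and p52 dimers in the nucleus, rose from 93.6 ± 11 to 118 ± 9.54 CPM (mean ± SD, n = 3 per group), a log2FC of 0.33 (adjusted p = 0.0118). Its call was lost without control replicate 2 (adjusted p = 0.0762), without control replicate 3 (0.0643) and without IL-1β replicate 1 (0.0989).

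A20, its partners and the deubiquitinases remove or edit the ubiquitin chains that carry the signal. Of 5 tested members of this group, 2 rose and 3 did not pass, and the median log2FC was 0.27. Tnfaip3 encodes A20, the ubiquitin-editing enzyme that ends NF-κB signaling, on the minus strand of chromosome 10 from 19000910 to 19015410 (gene ID 21929). Its level was 5.54, 3.67 and 5.24 CPM in the control samples and 34.5, 32.2 and 38.5 CPM in the IL-1β samples. Low in each control sample, Tnfaip3 was several times higher in each IL-1β sample. The log2FC of 2.87 (SE 0.17, 95% interval 2.52 to 3.21, adjusted p = 1.2e-12), or 7.29-fold, was the highest among the 41 tested members.

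Tnip1 encodes ABIN1, which binds A20 and linear ubiquitin chains, on chromosome 11 from 54910787 to 54962940 (gene ID 57783). It stood at 52.5, 45.7 and 52.1 CPM in control and at 117, 108 and 119 CPM after IL-1β. Again the groups were far apart, with a log2FC of 1.20 (SE 0.087, adjusted p = 9.4e-11). Tnip3, which encodes ABIN3, had 0 counts in each control sample and 10, 8 and 14 counts in the IL-1β samples. Too few for the count filter, it was at least 3.46-fold higher after IL-1β, as the mean of 1.05 CPM compares with 3 counts in the smallest control library. Where a fit with all 6 samples included it, it passed, at an adjusted p of 0.00137 with DESeq2 and 0.00124 without a filter.

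Tnip2, which encodes ABIN2, had a log2FC of 0.27 (adjusted p = 0.291), and of 0.16 to 0.38 with 1 sample left out. Cyld, a deubiquitinase that trims K63-linked and linear chains, was at 76.3 ± 6.62 CPM in control and 64 ± 7.07 CPM after IL-1β (SD, n = 3 per group), a log2FC of -0.25 (adjusted p = 0.0899). It was called lower in 2 of the 8 other settings with all 6 samples, among them total-count scaling (adjusted p = 0.0332), and without control replicate 1 (0.0199). Without IL-1β replicate 1 the log2FC of Cyld was -0.16 (adjusted p = 0.426). Otulin, which cleaves linear chains, had a log2FC of -0.092 (adjusted p = 0.752).

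The Rel family subunits are the transcription factors themselves. Of 5 tested, Nfkb1 was the member called, and the summed level was 293 ± 11.2 CPM (SD, n = 3) in control and 326 ± 17 CPM (SD, n = 3) after IL-1β. Rela encodes p65, the main activating subunit, and lies on chromosome 19 from 5637490 to 5648130 (gene ID 19697). It was measured at 137, 146 and 152 CPM in control and at 147, 137 and 152 CPM after IL-1β. The groups cover the same range. The log2FC of Rela was -0.0003 (SE 0.073, adjusted p = 0.999), with a 95% interval of -0.15 to 0.15.

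Nfkb1 encodes p105, the precursor of p50, on chromosome 3 from 135584655 to 135691547 (gene ID 18033). Its values were 34.1, 16.8 and 21.9 CPM in control and 40.1, 32.9 and 33.7 CPM after IL-1β, shown because they overlap, a choice made after they were seen. Control replicate 1 lay above the IL-1β replicates 2 and 3. The log2FC was 0.55 (SE 0.17, adjusted p = 0.0288), and the call was lost with DESeq2 (0.052). It was also lost without control replicate 2 (log2FC 0.34, adjusted p = 0.204), control replicate 3 (0.095), IL-1β replicate 1 (0.169), IL-1β replicate 2 (0.0562) or IL-1β replicate 3 (0.0829), while without control replicate 1 the log2FC was 0.88 (5.0e-06). The other 3 subunits with values above 0 did not pass after adjustment, although each had an unadjusted p under 0.05 and Rel and Relb did not overlap between groups. Rel, which encodes c-Rel, was at 0.81 (adjusted p = 0.143), Relb at 0.28 (0.102) and Nfkb2, which encodes the p52 precursor p100, at 0.19 (0.185). Relb passed without control replicate 1 (0.0404), where Nfkb2 was at 0.099 (0.548). For Rel the highest sample was IL-1β replicate 3, without which it was at 0.49 (0.561).

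The IKK complex, which phosphorylates IκB proteins, consists of the kinases IKKα (Chuk) and IKKβ (Ikbkb) and the scaffold NEMO (Ikbkg). Chuk was measured at 37.1, 40 and 41.8 CPM in control and 41.7, 35.7 and 33.6 CPM after IL-1β. For Ikbkb the values were 92.4, 115 and 110.3 CPM in control and 102, 114 and 108 CPM after IL-1β. Ikbkg stood at 106, 99.2 and 100.3 CPM in control and at 99.3, 111 and 94.4 CPM after IL-1β. The samples of the groups overlap in each of these genes. Their log2FC values were -0.10 for Chuk (95% interval -0.33 to 0.12, adjusted p = 0.652), 0.027 for Ikbkb (-0.15 to 0.20, 0.904) and -0.0041 for Ikbkg (-0.17 to 0.16, 0.987), and the sign of Ikbkb turned with upper-quartile and total-count scaling. Chuk ranged from -0.19 to -0.032 with 1 sample left out.

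Among the IKK-related kinases the picture was different for Ikbke, which encodes IKKε, a kinase that acts beside TBK1 in antiviral and NF-κB signaling, on chromosome 1 from 131254602 to 131279563 (gene ID 56489). Its level was 44.6, 42.9 and 49.3 CPM in control and 72.9, 74.7 and 75.3 CPM after IL-1β. The IL-1β samples were nearly equal and lay above each control. Ikbke rose by 0.71 on the log2 scale (SE 0.091, adjusted p = 2.4e-06). Tbk1, its closest relative, had a log2FC of 0.11 (adjusted p = 0.642), and Tank, an adaptor of both kinases, 0.23 (0.218). Tbk1 was at 0.0047 without control replicate 2 and at 0.21 without control replicate 3. Whether Ikbke differs in its response from Tbk1 was not tested.

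LUBAC is the ligase that builds linear ubiquitin chains on NEMO. Its catalytic subunit HOIP is encoded by Rnf31, which was at 13.2, 16.9 and 18.3 CPM in control and 14.5, 14.1 and 22.8 CPM after IL-1β. The groups overlap, and IL-1β replicate 3 stands above the other 5 samples. Rnf31 had a log2FC of 0.092 (95% interval -0.28 to 0.46, adjusted p = 0.831), and 10.8% of the 75-base windows in the last 500 bases of its transcripts are shared with Irf9, which overlaps it on the same strand. The partners Rbck1 (HOIL-1) and Sharpin had log2FC values of -0.049 and 0.17, with adjusted p of 0.841 and 0.456. Sharpin was at 0.080 without control replicate 2 and at 0.25 without control replicate 3. In edgeR 0 of the 3 genes were called, as with DESeq2, limma and the exact test, and 0 had an unadjusted p under 0.05.

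The TAK1 complex activates IKK, and NIK starts the non-canonical branch. Map3k7 encodes TAK1, with 47.8, 45.9 and 53.4 CPM in control and 49.7, 49.3 and 42.9 CPM after IL-1β. The groups overlap, at a log2FC of -0.052 (95% interval -0.26 to 0.16, adjusted p = 0.829). The TAK1-binding proteins Tab1, Tab2 and Tab3 had log2FC values of -0.21, 0.11 and -0.36, and Map3k14, which encodes NIK, -0.16. With 1 sample left out, Tab1 ranged from -0.53 (without IL-1β replicate 1) to -0.042 (without IL-1β replicate 3), Tab3 from -0.53 to -0.14 and Map3k14 from -0.26 to -0.034. Tab2 did not overlap between groups, at 157 ± 3.03 CPM (SD, n = 3) in control and 170.3 ± 4.96 CPM (SD, n = 3) after IL-1β (adjusted p = 0.34). Of the 5 genes 0 were called by edgeR, DESeq2, limma or the exact test, and 0 had an unadjusted p under 0.05.

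TRAF and RIPK adaptors link receptors to TAK1 and IKK. Of 6 tested, Traf1 was called. Traf1 encodes an adaptor that lacks the RING domain of its relatives and pairs with TRAF2, on chromosome 2 from 34943258 to 34961772 (gene ID 22029). It had 2, 4 and 4 counts in the control samples and 17, 21 and 18 counts in the IL-1β samples, or 0.188, 0.358 and 0.403 CPM and 1.82, 2.02 and 1.67 CPM. At or near the limit of detection in control, it was clearly counted in each IL-1β sample. Its log2FC was 2.50 with a wide 95% interval of 1.28 to 3.71 (adjusted p = 0.00416), and 1.11 on the scale of log2(CPM + 1), where the added 1 exceeds the control level.

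Traf2, the adaptor of TNF receptor complexes, was at 11.6, 8.41 and 11.1 CPM in control and 11.1, 11.3 and 14.4 CPM after IL-1β. These ranges overlap, with a log2FC of 0.25 (95% interval -0.14 to 0.64, adjusted p = 0.488). The log2FC of Traf2 ranged from 0.12 to 0.34 with 1 sample left out. Traf3, a brake on NIK, and Traf5 had log2FC values of -0.092 and -0.13, and Ripk1, the kinase scaffold of the TNF receptor, 0.018, a sign that turned with upper-quartile and total-count scaling. Ripk2, the kinase downstream of NOD receptors, was at 2.36 ± 0.724 CPM (SD, n = 3) in control and 4.8 ± 1.59 CPM (SD, n = 3) after IL-1β with no overlap, a log2FC of 1.03 (adjusted p = 0.0603). It passed with limma (0.0474), the exact test (0.0276), at least 10 counts in every sample (0.0391) and no filter (0.0271), and without control replicate 1 (0.046) or IL-1β replicate 3 (0.0412).

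The CARD-BCL10-MALT1 complex carries signals from G protein-coupled and other receptors to IKK. Its scaffold in cells outside the immune system, CARMA3, is encoded by Card10, on chromosome 15 from 78775136 to 78803042 (gene ID 105844). Card10 was at 24.8, 17.1 and 16.3 CPM in control and 12.4, 11.3 and 13.3 CPM after IL-1β. Each IL-1β sample was below each control, and control replicate 1 stood above the other controls. Card10 fell by 0.65 on the log2 scale (SE 0.17, adjusted p = 0.00975), and was the only member called lower in that test. The call was lost without control replicate 1 (log2FC -0.44, adjusted p = 0.0958) and without IL-1β replicate 2 (-0.59, 0.0632).

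Bcl10, the adaptor that forms filaments, had 49.4, 41 and 51.1 CPM in control and 52.7, 49.9 and 44.6 CPM after IL-1β. The groups overlap, with a log2FC of 0.057 (95% interval -0.16 to 0.27, adjusted p = 0.819). Malt1, the protease of the complex, was at 4.31 ± 0.66 CPM in control and 3.19 ± 1.82 CPM after IL-1β (SD, n = 3 per group), a log2FC of -0.43 with an interval of -1.17 to 0.31 (adjusted p = 0.534) and values from -1.004 to -0.20 with 1 sample left out.

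Of the 4 target genes on the list, the 3 that could be tested rose. Tnfaip2, a TNF-induced gene linked to membrane protrusions, lies on chromosome 12 from 111442661 to 111455018 (gene ID 21928). It stood at 36, 44.1 and 42.3 CPM in control and at 129.6, 137 and 135 CPM after IL-1β. The IL-1β samples lay close together and far above the controls, and Tnfaip2 rose by 1.71 on the log2 scale (SE 0.089, adjusted p = 1.4e-13), or 3.28-fold.

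Icam1 and Vcam1 encode adhesion molecules that bind leukocyte integrins. Icam1, on chromosome 9 from 21015960 to 21028796 (gene ID 15894), was at 43.7, 45.8 and 38.4 CPM in control and 70, 67.9 and 70.6 CPM after IL-1β. The groups do not overlap, and the log2FC was 0.70 (SE 0.094, adjusted p = 4.4e-06). Vcam1, on chromosome 3 from 116110020 to 116129688 (gene ID 22329), was at 8.93, 7.52 and 9.67 CPM in control and 22, 28.9 and 22.6 CPM after IL-1β. Replicate 2 was the highest IL-1β sample, and each was above each control, 2.82-fold on average (95% interval of the log2FC 1.16 to 1.83, adjusted p = 1.8e-07). Tnfaip8, which encodes a regulator of cell death, had 8, 5 and 19 counts in control and 7, 13 and 10 counts after IL-1β, too few to test.

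**Figure D2:**
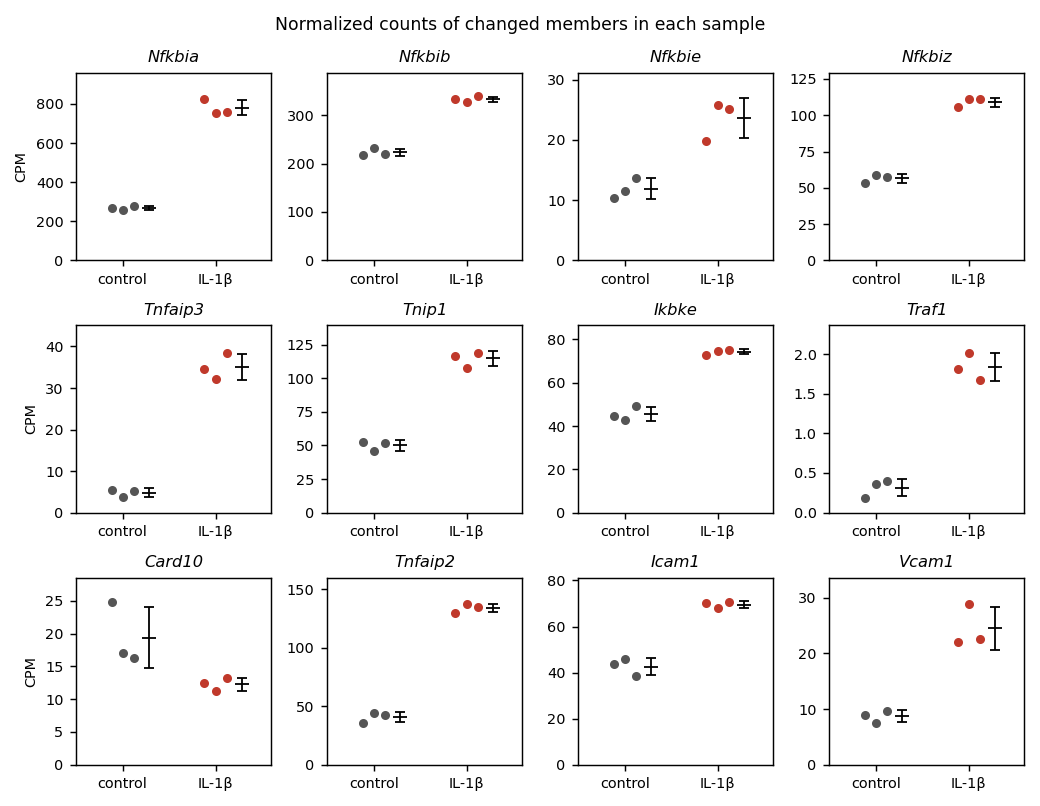
Normalized counts (CPM) of the 12 members with an adjusted p under 0.05 and an absolute log2FC of at least 0.58, one point per sample (gray for control, red for IL-1β), with the mean and SD beside the points (n = 3 per group). The IL-1β samples lie above the controls in each panel except Card10, where they lie below.

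The 27 tested members that were not called had log2FC values from -0.43 (Malt1) to 1.03 (Ripk2), with adjusted p from 0.0603 to 0.999. For 19 of them the 95% interval lay within 0.58 of 0 on the log2 scale, so that a difference beyond that size lies outside the interval. The widest intervals among them are those of Ripk2, Malt1, Rel, Tab1 and Traf5, each with few counts. At their 3′ ends, Nfkbib, Tnfaip2, Icam1, Nfkb2 and Otulin overlap a gene on the opposite strand, and how the counts treat strand is not given, so the part of that gene's reads in their counts was not tested.

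The members were also compared in the sequence around their gene starts. RefSeq promoter windows on GRCm38.p6, from 250 bases before to 50 after each start, were available for 34 of the 44 members, in 48 windows. The windows were searched on both strands for the κB consensus, a 10-base motif. At least 1 match was found in 15 of the 34 members (44.1%) and in 20 of the 48 windows, against 2779 of 32851 windows of that length in the reference (8.46%) and 2581 of 27025 genes (9.55%). A match was present in 6 of the 11 called members with a window and in 7 of the 21 that were not called, as well as in the 2 that were not tested. With a motif of GGG, any 3 bases and TTCC in place of the consensus, 14 members had a match (41.2%, against 1704 of 27025 genes, or 6.31%), 4 of them called, 9 not called and 1 not tested, and since the motifs overlap, 11 members had both. A match describes the letters only.

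The 250 bases before the start are printed for the 5 called members with a match there and for Nfkb2, which was not called but has several. They are given 5′ to 3′ on the gene's strand, with capitals for bases in a match on either strand, and matches can overlap. The windows are chr12:55492648-55492897 for Nfkbia, chr17:45555450-45555699 for Nfkbie, chr10:19015411-19015660 for Tnfaip3, chr11:54962941-54963190 for Tnip1, chr12:111442411-111442660 for Tnfaip2 and chr19:46304487-46304736 for Nfkb2. Nfkbie, Tnfaip2 and Nfkb2 are on the plus strand and the others on the minus strand.
Nfkbia: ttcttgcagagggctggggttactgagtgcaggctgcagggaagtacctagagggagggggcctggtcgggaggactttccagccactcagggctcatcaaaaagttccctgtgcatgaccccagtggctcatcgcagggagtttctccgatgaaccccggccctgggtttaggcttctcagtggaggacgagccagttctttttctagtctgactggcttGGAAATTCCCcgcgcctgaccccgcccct
Nfkbie: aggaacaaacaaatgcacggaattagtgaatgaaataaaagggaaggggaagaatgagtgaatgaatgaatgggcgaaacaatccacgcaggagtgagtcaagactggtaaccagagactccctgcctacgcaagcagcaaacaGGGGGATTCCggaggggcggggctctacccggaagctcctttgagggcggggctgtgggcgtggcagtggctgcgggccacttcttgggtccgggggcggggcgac
Tnfaip3: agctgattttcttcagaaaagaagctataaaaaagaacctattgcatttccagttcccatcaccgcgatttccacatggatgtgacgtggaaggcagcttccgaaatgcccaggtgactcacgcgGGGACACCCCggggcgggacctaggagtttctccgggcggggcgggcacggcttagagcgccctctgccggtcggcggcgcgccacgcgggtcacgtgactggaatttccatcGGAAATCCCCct
Tnip1: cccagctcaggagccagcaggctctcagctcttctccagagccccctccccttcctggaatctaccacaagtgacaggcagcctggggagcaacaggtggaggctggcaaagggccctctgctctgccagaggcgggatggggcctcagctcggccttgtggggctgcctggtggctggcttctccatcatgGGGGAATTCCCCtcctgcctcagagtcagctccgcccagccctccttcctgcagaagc
Tnfaip2: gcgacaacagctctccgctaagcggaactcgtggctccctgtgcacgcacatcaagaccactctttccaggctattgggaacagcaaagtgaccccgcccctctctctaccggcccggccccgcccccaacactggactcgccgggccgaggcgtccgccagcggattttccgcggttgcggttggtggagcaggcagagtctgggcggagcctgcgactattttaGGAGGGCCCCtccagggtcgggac
Nfkb2: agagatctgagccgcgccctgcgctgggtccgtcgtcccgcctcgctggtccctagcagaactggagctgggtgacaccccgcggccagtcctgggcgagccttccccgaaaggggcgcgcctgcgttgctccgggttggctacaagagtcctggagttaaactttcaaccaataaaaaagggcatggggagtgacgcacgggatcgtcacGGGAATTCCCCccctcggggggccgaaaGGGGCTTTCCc

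The first base of the match lies 29 bases before the start in Nfkbia, 24 in Tnfaip2 and 106 in Nfkbie. Tnfaip3 has a pair of separate matches, which begin 125 and 12 bases before the start. In Tnip1 a run of 12 bases holds 3 overlapping matches, the first of them 58 bases before the start. The Bcl3 match begins just after the start, outside the printed bases. Matches were also found in Rel, Cyld, Tank, Map3k7, Traf3 and Bcl10, none of which was called, and in Nfkbid and Tnip3, which had too few counts. The 10 members without a window in the reference are Nfkb1, Relb, Nfkbiz, Sharpin, Ikbkb, Tab1, Ripk2, Malt1, Tnfaip8 and Vcam1.

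**Figure D3:**
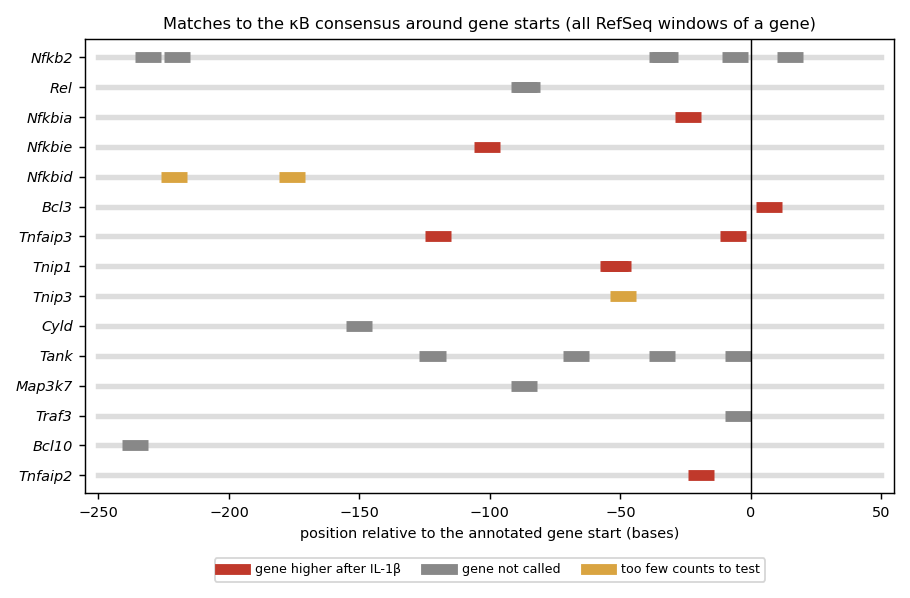
Position of each match to the κB consensus relative to the annotated gene start, in bases, for the 15 members with a match, with red for members called higher, gray for those not called and yellow for those with too few counts. Gray bars span the windows, several windows of a gene are drawn on 1 line, and matches lie on both sides of the start.

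The other genes of the pathway, 49 in all and 46 tested, were described beside the members. Of the 46, 8 rose, 1 fell and 37 did not pass (19.6% called), with a median log2FC of 0.048. Over the 11657 genes tested, 6.97% were higher, 6.44% lower and 13.4% called in all, which also stands beside the counts of the lists below. Receptors that feed NF-κB had 4 of 9 tested genes higher. Il1r1, the signaling receptor of IL-1β, rose from 36.6 ± 3.47 to 152 ± 10.2 CPM (mean ± SD, n = 3 per group), a log2FC of 2.06 (adjusted p = 6.3e-15). Tnfrsf1b, the second TNF receptor, rose by 1.63 on the log2 scale (2.4e-14), the death receptor Fas by 1.10 (6.5e-05) and Tlr2, a receptor for bacterial lipoproteins, by 0.97 (8.5e-04).

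Of 14 proximal adaptors and kinases, 3 rose. Tifa, an adaptor that binds TRAF6, rose from 12.8 ± 1.28 to 66.1 ± 6.07 CPM (mean ± SD, n = 3 per group), and Irak3, an inhibitory member of the IRAK family, from 13.2 ± 4.75 to 61.9 ± 3.12 CPM (mean ± SD, n = 3 per group). Their log2FC values were 2.37 (adjusted p = 7.3e-14) and 2.24 (8.7e-11). Irak2, a kinase relative that sustains signaling, was at 0.28 (0.0219), a call lost with total-count scaling (0.0786) and without control replicate 1 (0.067), control replicate 2 (0.0519), IL-1β replicate 1 (0.0932) or IL-1β replicate 3 (0.0903). Traf4 had a log2FC of -0.39 (0.0508) and passed in 5 of the 8 other settings with all 6 samples.

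Of 15 tested ubiquitin enzymes and regulators, Birc3, which encodes the ligase cIAP2, rose from 11.8 ± 1.03 to 22.8 ± 1.83 CPM (mean ± SD, n = 3 per group), a log2FC of 0.96 (adjusted p = 3.3e-05). The others of this list did not pass, with the deubiquitinase Otud7b at -0.23 (0.0504; called lower in 7 of the 8 other settings with all 6 samples), Optn at 0.27 (0.0787) and Birc2, which encodes cIAP1, at 0.27 (0.196). Of 8 tested modifiers of p65, the kinase gene Nlk was called lower, at -0.34 (0.039), a call lost with DESeq2 (0.0765) and without any sample other than control replicate 1 (0.0526 to 0.201). Cdk9 and Sirt1 were at 0.062 and -0.13 and did not pass.

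Cell type markers were read in the same libraries. Hepatocyte markers were abundant, led by Alb, and summed to 21967, 21357 and 21479 CPM in control and 17814, 18659 and 18584 CPM after IL-1β. Of 8 tested, 7 were lower, with a median log2FC of -0.34, among them Alb at -0.20 (adjusted p = 0.0113), Apoa1 at -0.33 (0.0412), Apoa2 at -0.31 (0.0163) and Ttr at -0.35 (1.4e-04). Hnf4a and Asgr1, named after their values were seen, were lower by more, at -1.04 (1.6e-09) and -0.55 (1.7e-06). Apoa1 lost its call with DESeq2 (0.518), with limma (0.0604) and without control replicate 1 (log2FC -0.094, adjusted p = 0.395), IL-1β replicate 1 (0.0674), IL-1β replicate 2 (0.252) or IL-1β replicate 3 (0.146). Apoa2 lost it with DESeq2 (0.295) and without control replicate 1 (log2FC -0.14, adjusted p = 0.12), IL-1β replicate 1 (0.071) or IL-1β replicate 2 (0.134), and Alb with limma (0.0882) and without control replicate 2 (0.0744) or IL-1β replicate 1 (0.0894). Cps1, at 1.79 to 3.22 CPM, and Ass1, at 3 to 13 counts, were very low for hepatocytes. Tf has no entry under that symbol and was not analysed here, as was Ly6g among the neutrophil markers.

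Kupffer cell and macrophage markers summed to 248, 279.9 and 276 CPM in control and 258, 254 and 287 CPM after IL-1β, so that the groups overlap. The most abundant was Cd68, at 192 ± 17.4 CPM (SD, n = 3) in control and 184 ± 12.3 CPM (SD, n = 3) after IL-1β, followed by Ctss, Cd5l and Cd74, and of the Kupffer cell markers Vsig4 had 0 to 7 counts, Timd4 0 or 1, and Clec4f 4, 27 and 7 counts in control and 6, 0 and 9 after IL-1β. Of 11 tested, 0 were called by edgeR, DESeq2 or limma and 1 by the exact test, with a median log2FC of 0.31. In edgeR 3 had an unadjusted p under 0.05, each of these higher. They were Cd74, Marco and C1qa, with Marco and C1qa named after their values were seen. Marco had 41, 32 and 52 counts in control and 68, 67 and 57 after IL-1β. Its groups did not overlap, at a log2FC of 0.67 (adjusted p = 0.141). C1qa was at 0.75 (adjusted p = 0.211), and its groups overlapped. Cd74 was called higher by the exact test (adjusted p = 0.0411) and by edgeR without control replicate 1 (log2FC 0.71, adjusted p = 0.0235). Endothelial markers, led by Eng, summed to 83.9, 84.1 and 91.2 CPM in control and 83.1, 81.3 and 87.6 CPM after IL-1β. Of 9 tested, Lyve1 was higher, at a log2FC of 0.45 (adjusted p = 0.0274), 2 were lower and 6 did not pass, with a median of -0.31. At an unadjusted p under 0.05 in edgeR, 1 was higher and 4 were lower. Those called lower, named after their values were seen, were Clec4g at -2.87 (adjusted p = 1.9e-05) and Kdr at -1.49 (0.00511). Clec4g, with 3, 7 and 14 counts after IL-1β, reached the count filter in the 3 controls and in 1 IL-1β sample, so with that filter it could be tested only because of its level in control. The Lyve1 call was lost with DESeq2 (0.0587) and total-count scaling (0.0507) and without control replicate 1 (0.0965), control replicate 3 (0.0807), IL-1β replicate 2 (0.137) or IL-1β replicate 3 (0.0851).

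Stellate cell markers, led by Dcn, summed to 25.5, 23.4 and 21.7 CPM in control and 22.8, 26.7 and 28.9 CPM after IL-1β, and of 3 tested 0 were called by edgeR, DESeq2, limma or the exact test, with 0 at an unadjusted p under 0.05. Cholangiocyte markers summed to 326, 316 and 329 CPM in control and 236, 239.7 and 236 CPM after IL-1β. This sum rests on Sox9, at a log2FC of 0.21 (adjusted p = 0.0519, called higher in 4 of the 8 other settings with all 6 samples and without control replicate 1), and Spp1, which fell by 1.20 on the log2 scale (4.4e-12), while Krt7, Krt19, Epcam and Cftr were near 0. Of the lymphocyte markers Cd3e, Cd3g, Cd79a and Ms4a1 were at 0 in each sample and Nkg7 had 1 count in all. Among neutrophil markers S100a9, Retnlg and Mpo were at 0, and S100a8 had 0 counts in control and 19, 36 and 51 counts after IL-1β, at least 11.3-fold higher against 3 counts in the smallest control library. The part of any of these cell types in the levels of Nfkbia, Tnfaip3, Icam1, Vcam1 and the other members was not tested.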

How the data were processed

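RNA of 6 primary hepatocyte samples, 3 control and 3 IL-1β, was grouped by the sample labels. The authors deposited raw read counts per gene, from QuantSeq reads aligned with Bowtie2 to GRCm38 (mm10). Their counting tool and strand handling are not given in the sources used here. The deposited table also holds the authors' log2 normalized values in 6 columns, group averages, a fold change and a p-value, none of which was used.

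The comparison used edgeR 4.0.16 in R 4.3.3: filterByExpr, TMM factors, the quasi-likelihood fit and F test, and p-values adjusted by Benjamini and Hochberg's method across 11657 genes. SE is the absolute log2FC over the square root of F, and the 95% interval uses the test's total degrees of freedom. The test was also run on simulated data, where some of the genes changed by 1.5-fold were not called and some unchanged genes were. An exact permutation test of 3 against 3 samples cannot give a two-sided p under 0.1, so none was used. Summaries and figures were made in Python 3.11.15 with pandas 2.3.3 and matplotlib 3.10.9. Gene positions are those of the deposited table, checked against GENCODE on GRCm38. Some gene starts differ in GENCODE, among them Tnfaip3 (19015657), Tnfaip2 (111442469) and Nfkb2 (46304320). The matches printed for Tnfaip3, Tnfaip2 and Nfkb2 lie before the RefSeq start but inside the GENCODE gene.

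Alternatives were DESeq2 1.42.0, limma 3.58.1 on log2(CPM + 1), the exact test of edgeR, scaling by upper quartiles or by total counts, a filter of 10 counts in every sample or none, the replicate number as a block, each of the 6 samples left out, a fold change over 1.5 added to the call and a second motif.

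The members and gene lists were chosen with earlier results of these data known. Values in each sample are given for members with an adjusted p under 0.05 and an absolute log2 fold change of at least 0.58, and for the defining members of each role group (Rela, Nfkbia, Tnfaip3, Rnf31, Chuk, Ikbkb, Ikbkg, Map3k7, Traf2, Bcl10). Of each list of other pathway genes at most the 4 with the smallest adjusted p are named, and of each marker list at most the 4 most abundant and those at 0. Genes named beyond this rule for a lost or gained call, for an unadjusted p under 0.05, for few counts or as members near 0 were chosen after their values were seen.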

Additional observations from a re-analysis of the deposited data

How the results depend on the processing

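Across the 8 other settings with all 6 samples, 1366 to 1728 genes were called, and 1131 to 1596 with 1 sample left out. A fold change over 1.5 lowered the count to 769, a rule that is stricter by construction. Called members numbered 14 to 16 in those 8 settings and 12 to 17 with a sample left out. Nfkbia, Nfkbib, Nfkbie, Nfkbiz, Tnfaip3, Tnip1, Ikbke, Tnfaip2, Icam1 and Vcam1 kept their direction and call in those 8 settings and with each sample left out, as did Traf1 except with at least 10 counts in every sample, where it was not tested. Nfkbib, Nfkb1 and Bcl3 lie under a fold change of 1.5 and lost their calls when it was required. Members called lower were 2 with total-count scaling and 2 with the replicate block, where Cyld was added (adjusted p = 0.0447 with the block), and 0 to 1 with a sample left out. Between the groups, deviations of libraries that share a number correlated by 0.062, 0.008 and 0.004. These low values cannot decide whether the numbers pair the groups, since counting error in the deviations can hide a shared source. The median log2 fold change of the members was 0.11 with total-count scaling and 0.13 to 0.22 with a sample left out. The κB consensus was matched in 15 members and the second motif in 14.

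Values that changed sign lie near 0, and the cause was not tested. Rela was 0.0011 with DESeq2 and 0.0022 with at least 10 counts in every sample. Upper-quartile and total-count scaling gave -0.0011 and -0.027 for Ikbkb, -0.011 and -0.036 for Ripk1 and -0.013 and -0.039 for Eng. With 1 sample left out, the ranges were -0.038 to 0.045 for Rela, -0.19 to 0.085 for Otulin, -0.17 to 0.22 for Rnf31, -0.11 to 0.024 for Rbck1, -0.063 to 0.097 for Ikbkb, -0.070 to 0.051 for Ikbkg, -0.094 to 0.018 for Map3k7, -0.32 to 0.056 for Traf5, -0.0067 to 0.052 for Ripk1, -0.032 to 0.13 for Bcl10, -0.36 to 0.052 for Sirt1, -0.077 to 0.022 for Ctss and -0.048 to 0.12 for Eng. Of the other values for single members, 314 kept direction and call, 6 gained a call and 1 lost it with all 6 samples, and 214 kept them, 4 gained a call and 10 lost it with a sample left out. Gained and lost mean that the adjusted p crossed 0.05, whichever way the log2 fold change moved. For the other named genes these numbers were 273, 17 and 8, and 191, 7 and 22. Depth limits Nfkbid and Tnip3, at 0 counts in the controls, Traf1, at 2 to 4, and Tnfaip8, at 5 to 19.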
